A study of Caenorhabditis elegans with 9 samples.

Results

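Chromosome V is the largest chromosome of Caenorhabditis elegans, and the genes described here are those that the deposited TPM table places on it and that reached 10 or more counts in 3 or more of the 9 libraries. Of 5120 chromosome V genes in that table, 2533 passed, out of 13425 genes that passed in the whole series of 20389. Genes that start before base 6000000 form the left arm (616 genes), those that start after base 16000000 form the right arm (438 genes), and the 1479 genes between are the centre (positions are those of the TPM table, WS220). The 1054 arm genes and the 1479 centre genes were compared in each strain. Arms and centre are defined by position, and a gene enters by its counts alone. Chromosome V was picked as the autosome whose median change against wild type lies nearest to that of X (0.028 and 0.039 for the chromosome in the comparisons below), so that nearness is not a finding.

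The libraries are poly(A) RNA-seq of mixed-stage embryos from 3 strains with 3 libraries each. Wild type is N2, strain MK14 carries hsp::dpy-27::gfp, which gives the protein DPY-27::GFP, and strain KB01 carries hsp::dpy-27[EQ-TR]::gfp, which gives DPY-27(EQ)::GFP, a form with a glutamate of the ATPase site changed to glutamine (the labels do not explain TR). MK14 and KB01 name these strains below. In each of the 3 strains the parents were kept at 35°C for 30 min and then at room temperature for 2 h before their embryos were collected. Each transgene is a single copy on chromosome II driven by the hsp-16.41 heat-shock promoter, the endogenous dpy-27 gene remains, and the study describes the heat-induced protein as variable between embryos, so a library averages embryos with more and less of it. Labels do not say whether replicates were separate cultures, so the p-values measure the spread between these libraries, which may be technical.

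Autosomes of this nematode have a gene-dense centre of conserved, broadly used genes, flanked by arms that recombine more, hold more repeats and carry more rapidly evolving gene families. On chromosome V these families include the largest collection of chemoreceptor genes in the genome, which are used mainly in sensory neurons. DPY-27 is the SMC subunit of condensin DC, the complex that binds both X chromosomes of hermaphrodites and lowers their expression, and chromosome V is not its normal target. The comparisons ask whether expression along this autosome differs when either form of the protein is induced.

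Wild type had 17107945 to 23536013 reads on genes, MK14 7062182 to 9582838 and KB01 7573682 to 21281027. Arm genes took 5.09 to 5.47% of these reads and centre genes 9.54 to 10.2%. Wild type stands apart from the other libraries in a second count: it had 1.04 to 1.09 reads assigned to no gene for each read on a gene, against 0.0346 to 0.0407 in MK14 and 0.0375 to 0.0826 in KB01. File names of the 3 wild-type libraries and of KB01 replicate 3 carry one prefix and those of the other 5 libraries another, and the labels do not say what the prefix means. Summed late embryo markers (muscle and cuticle genes, 9 of 10 used) were 6.68 to 13.0 times the summed maternal and early markers (10 of 10 used) in wild type, 7.50 to 23.8 times in MK14 and 10.1 to 18.2 times in KB01. The 3 ranges of this ratio overlap, but the early sum alone was 1436 to 2391 CPM in wild type and 1084 to 1359 CPM in KB01, which do not. Within the late sum the cuticle gene sqt-3 was called lower in MK14, and the muscle genes unc-54, tnt-2, unc-27 and unc-15 were called higher (log2 fold changes of 1.08, 1.31, 1.16 and 0.87), so the sum hides opposite changes. Markers of the parents and of sperm (4 of 6 used) summed to 1.38 to 9.85 CPM in wild type, 12.5 to 26.3 CPM in MK14 and 3.45 to 16.1 CPM in KB01, so that MK14 lay above wild type in each library. The part of these markers in the results was not tested.

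Fewer genes of chromosome V gave reads in embryos than genes elsewhere, and the gap was widest in the arms. On chromosome V 49.5% of the genes passed the count minimum, against 71.3% of 15256 genes on the other chromosomes. The share was 42.8% in the left arm, 56.8% in the centre and 40.8% in the right arm. Chemoreceptor genes made up 575 of 2514 arm genes (22.9%) and 353 of 2606 centre genes (13.5%), and chromosome V holds 928 of them where all other chromosomes together hold 460. Only 25 of those in the arms and 17 of those in the centre passed. With chemoreceptors left out, 53.1% of arm genes and 64.9% of centre genes passed, so the arms were lower without that family as well.

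Along the chromosome the pattern was not symmetric. The megabase from 17 to 18 Mb in the right arm had the highest share of chemoreceptor genes (37.3% of 212) and the lowest share of genes that passed (23.1%), with a median level of 3.34 TPM over the 49 that did. The last centre megabase, from 15 to 16 Mb, resembled the arms: 32.2% of its genes were chemoreceptors and 28.1% passed. At the right end, from 20 to 21 Mb, 57.5% of the genes passed and their median was 16.7 TPM, higher than in any megabase of the centre. These are descriptions of bins, and bins are not replicates.

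**Figure D1:**
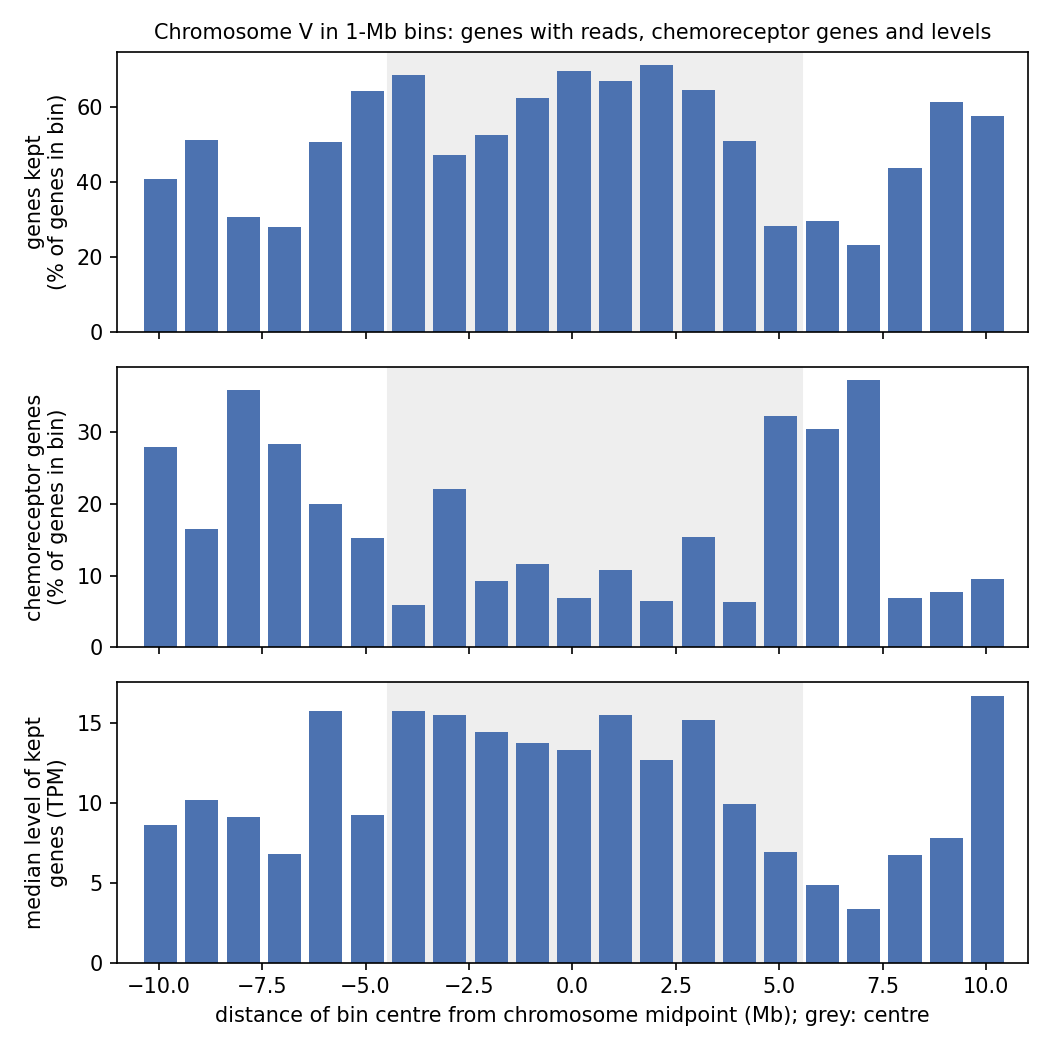
Bars give, for each megabase of chromosome V placed by the distance of its centre from the chromosome midpoint (Mb), the share of genes that passed the count minimum (%, top), the share that are chemoreceptor genes (%, middle) and the median level of the genes that passed (TPM over the 9 libraries, bottom), with the centre shaded grey. The megabase with 37.3% chemoreceptor genes is also the one with the lowest share of genes that passed (23.1%) and the lowest median level (3.34 TPM).

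Genes that passed were expressed at lower levels in the arms than in the centre in every library. TPM is a level per length of transcript, so it can be set side by side between genes. In wild type the median was 7.38 ± 0.26 TPM in the arms and 10.8 ± 0.42 TPM in the centre (SD, n = 3), while genes of chromosomes I to IV had a median of 19.8 ± 0.77 TPM and X-linked genes one of 11.9 ± 0.49 TPM. The right arm was lowest, at 6.42 ± 0.17 TPM, and the left arm had 7.92 ± 0.34 TPM. Median TPM of every one of these sets was higher in both transgenic strains (for the centre, 13.8 ± 1.83 and 14.1 ± 0.56 TPM). For TPM, only differences within a library are therefore compared between strains below, while changes of single genes rest on counts scaled between libraries.

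On the log2(TPM + 1) scale the median of the arms minus that of the centre was -0.495, -0.503 and -0.489 in wild-type replicates 1 to 3. MK14 had -0.594, -0.610 and -0.586 (mean -0.597 ± 0.012, SD, n = 3). KB01 had -0.646, -0.577 and -0.575 (mean -0.599 ± 0.040), against a wild-type mean of -0.496 ± 0.0072. The gap between arms and centre was thus wider in all 6 transgenic libraries than in all 3 wild-type libraries. The ranges of the transgenic strains overlap.

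Counts also set the wild-type libraries apart from the transgenic ones, whose order among themselves differed from that by TPM. For each gene the log2 CPM of a library was set relative to that gene's mean over the 9 libraries, which removes the difference in level between genes, and the median over centre genes was subtracted from the median over arm genes. Wild-type replicates 1 to 3 had 0.055, 0.044 and 0.093. MK14 replicates had -0.0050, -0.071 and -0.015, and KB01 replicates had -0.014, -0.066 and 0.011. All 3 wild-type libraries lay above all 6 transgenic ones, by small amounts: the means were 0.064 ± 0.026, -0.030 ± 0.036 and -0.023 ± 0.039 (SD, n = 3). No p is given for a score over the members.

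Several library properties move with this difference. Depth, the file name prefix and the share of reads assigned to no gene all separate wild type from MK14, and the last of these also from KB01, so strain and the no-gene share cannot be told apart. KB01 replicate 3 shares the prefix with wild type and has 21281027 reads, and its value of 0.011 was the highest of the 6 transgenic libraries and below the lowest wild-type value of 0.044. With all libraries thinned to the size of the smallest, the wild-type values were 0.047 to 0.061 and the highest transgenic value 0.0045. Without genes that overlap a gene on the opposite strand, they were 0.047 to 0.082 against at most 0.023. The late to early marker ratio was inside the wild-type range of 6.68 to 13.0 in MK14 replicates 1 and 3 and KB01 replicate 2. Over all genes that passed, these libraries had -0.0050, -0.015 and -0.066. MK14 replicate 2 and KB01 replicates 1 and 3, with ratios above that range, had -0.071, -0.014 and 0.011. The parts of depth, prefix and stage in the difference were not tested. Among genes with a mean of 10 CPM or more, the separation was lost: wild type had 0.024 to 0.041, and KB01 replicate 3 had 0.028.

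**Figure D2:**
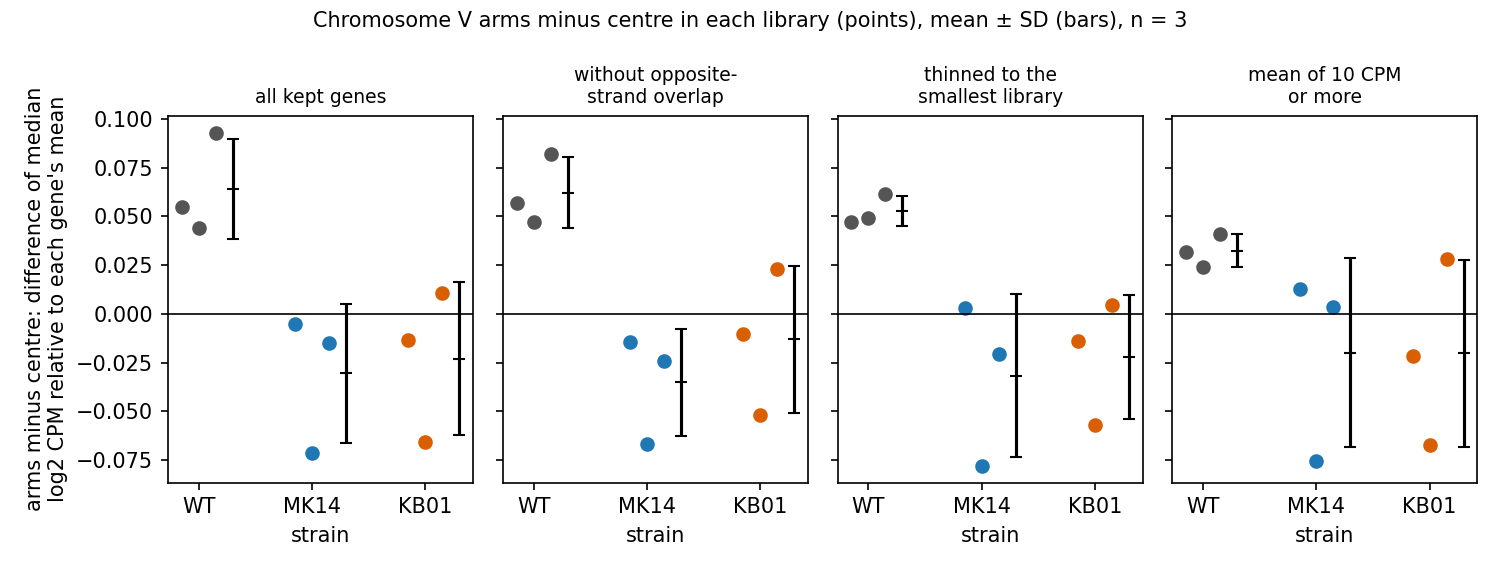
Points are the 9 libraries, 3 for each strain (WT, wild type, MK14 with DPY-27::GFP and KB01 with DPY-27(EQ)::GFP), and the vertical axis is the median log2 CPM relative to the gene mean in the arms minus that in the centre, with black bars for mean ± SD. All 3 wild-type points lie above the other 6 in each panel but the last, and in the last, restricted to a mean of 10 CPM or more, the wild-type range of 0.024 to 0.041 holds the point at 0.028.

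Against wild type, the median fitted log2 fold change of centre genes was 0.057 in MK14 and 0.081 in KB01, beside medians of 0.058 and 0.085 for X-linked genes, to which the chromosome was matched when it was picked. The medians of the arms were near 0, at -0.0084 and -0.021, and the arms minus the centre gave -0.066 and -0.10. The left and right arm had -0.0024 and -0.010 in MK14 and -0.031 and -0.0058 in KB01. Chromosomes I to IV had medians of -0.036 and -0.068, and all 13425 genes medians of -0.013 and -0.030. These comparisons use the same 3 wild-type libraries, so they are not independent of each other.

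Chromosome V was picked for a median change near that of X, so values against chromosomes I to IV are not independent of that choice. Per library, the centre relative to chromosomes I to IV was -0.054, -0.036 and -0.16 in wild type. KB01 had 0.091, 0.034 and 0.047, and these ranges do not overlap. In MK14 the values were 0.00097, 0.23 and -0.087, so its libraries spread across the values of both other strains. Replicate 2, with 0.23, is also the library with the highest late to early marker ratio (23.8), and the part of stage in this value was not tested. The arms relative to chromosomes I to IV overlapped between all 3 strains, with means of -0.018 ± 0.040 in wild type, 0.019 ± 0.13 in MK14 and 0.034 ± 0.058 in KB01.

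A lower median in the outer than in the inner genes was not seen on chromosome V alone. With boundaries at the same fractions of the length, outer minus inner was -0.045 and -0.041 on chromosome I, -0.10 and -0.11 on II, -0.0018 and -0.0061 on III, -0.046 and -0.056 on IV, and -0.079 and -0.056 on X, for MK14 and KB01 in that order. Chromosome II had differences at least as large as those of V in both comparisons.

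**Figure D3:**
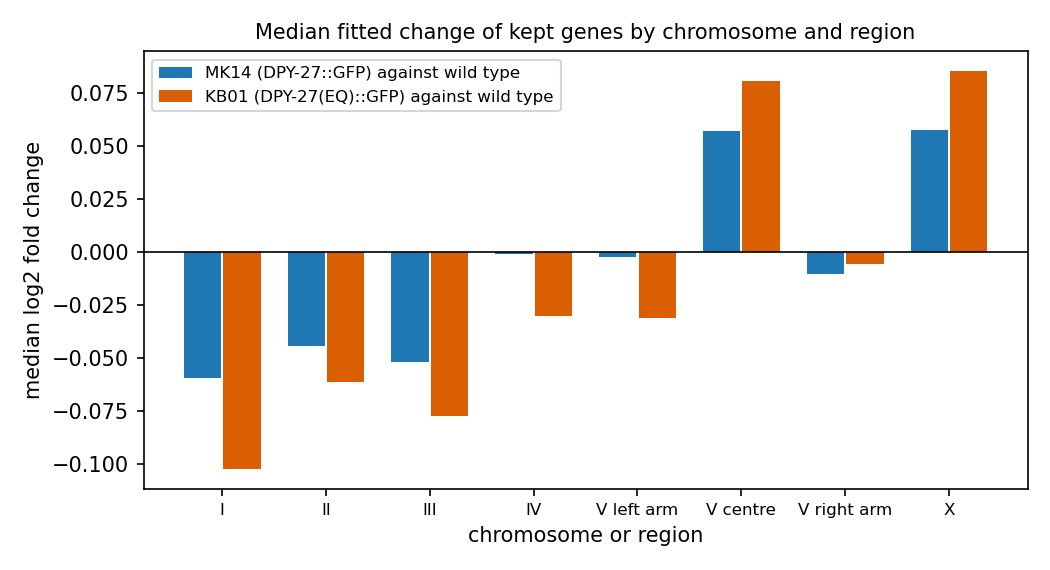
Bars are the median fitted log2 fold change against wild type of the genes that passed, by chromosome and by region of chromosome V, for MK14 (blue) and KB01 (orange). The centre of V (0.057 and 0.081) stands next to X (0.058 and 0.085), and both arms lie near 0. Chromosome V was picked for a median change near that of X, so the nearness of its centre to X is not independent of that choice.

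Gene by gene, chromosome V showed about the share of changes seen genome-wide. In MK14 against wild type, 37 arm genes (3.51%) and 62 centre genes (4.19%) rose, beside 3.23 percent of all genes tested. Lower in that strain were 69 arm genes (6.55%) and 85 centre genes (5.75%), beside 7.11 percent of all genes (edgeR's quasi-likelihood test, adjusted p under 0.05 over all 13425 genes). In KB01 24 arm genes (2.28%) and 38 centre genes (2.57%) rose, beside a background of 1.88 percent, and 47 arm genes (4.46%) and 54 centre genes (3.65%) fell, beside 4.98 percent. Counts of calls depended on single libraries. Without wild-type replicate 3, 5 arm genes rose and 22 fell in MK14, with 6 and 30 in the centre, whereas without MK14 replicate 3 the arms had 115 and 100 and the centre 223 and 140. For KB01, leaving out wild-type replicate 3 left 5 and 22 calls in the arms and 4 and 26 in the centre.

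With the file name prefix as a covariate, 0 arm genes rose and 2 fell in MK14, with 0 and 5 in the centre, and in KB01 3 and 7 in the arms and 3 and 16 in the centre. No gene of the chromosome called higher in MK14 kept its call in that fit. There the prefix effect is read from KB01 alone, where 1 library carries the wild-type prefix. Of the arm genes 18 and of the centre genes 14 passed the count minimum only through the 3 wild-type libraries, so their entry rests on wild type, and their direction is no evidence of a decrease. Of the centre genes 2 passed with no wild-type library at the minimum, and of the arm genes 0.

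Genes that overlap another gene on the opposite strand made up 24.7% of the arm genes and 37.5% of the centre genes. Among arm genes lower in MK14, 30 of 69 (43.5%) had such an overlap, and among those higher 3 of 37 (8.11%). In the centre the numbers were 46 of 85 (54.1%) and 31 of 62 (50.0%). Without overlapping genes, 34 arm genes rose and 39 fell in MK14, and in KB01 22 rose and 24 fell. The counting is not stated to have used strand, so counts of a gene may hold reads of its partner. This stands beside every overlapping gene named here. T25F10.1, within the span of clik-1, had 971 to 1188 counts in wild type and at most 1 in each transgenic library. Whether the libraries differed in the handling of strand was not tested.

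The clearest group of higher arm genes sat together in the right arm, in the megabase where chemoreceptors are most frequent and levels lowest. From 17521135 to 17571577, 4 consecutive genes that passed, fbxa-136, C18D4.6, C38D9.8 and C38D9.2, were each called higher in KB01, and all but C38D9.8 in MK14 too. The gene fbxa-136 encodes an F-box protein of a family that has expanded in nematodes, and F-box proteins are the substrate adaptors of ubiquitin ligases. It had 3.35, 2.07 and 2.09 CPM in wild type, 10.2, 13.1 and 5.51 in MK14 and 11.4, 8.09 and 12.9 in KB01. Every transgenic library was above every wild-type library, which the rule that named the gene required. The log2 fold changes were 1.94 ± 0.34 (SE, edgeR adjusted p = 0.00479) and 2.11 ± 0.33 (edgeR adjusted p = 0.00312). With the file name prefix as a covariate the call in MK14 was lost.

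Its neighbour C18D4.6 (chrV:17535588-17538347, minus strand) had a narrow spread in wild type, with 14.9, 15.1 and 14.5 CPM. MK14 had 27.1, 30.5 and 25.1 CPM and KB01 53.0, 42.0 and 45.3 CPM, so that the 3 strains formed 3 groups that did not overlap. Separation from wild type was a condition of naming this gene. The log2 fold change was 0.90 ± 0.15 in MK14 (edgeR adjusted p = 0.00403) and 1.66 ± 0.15 in KB01 (edgeR adjusted p = 2.63e-05). It stayed called in KB01 with the prefix as a covariate, but its call in MK14 was lost. Between the transgenic strains the difference was 0.76 with an unadjusted edgeR p of 0.000237 and an adjusted p of 1.

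Levels of C38D9.2 were 8.83, 6.81 and 8.54 CPM in wild type and 47.9, 27.6 and 42.1 CPM in KB01, with 24.5, 36.3 and 12.5 CPM in MK14. The gene rose by 2.28 ± 0.33 on the log2 scale in KB01 (edgeR adjusted p = 0.00157). The remaining gene of the run, C38D9.8, had 5.41 to 7.31 CPM in wild type and 9.61 to 19.0 CPM in KB01 (edgeR adjusted p = 0.0338), and its call held in only 1 of 6 fits that left out a library. None of the 4 overlaps a gene on the opposite strand.

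This stretch was also where the median change of a megabase was largest. Over the 49 genes that passed between 17 and 18 Mb, the median log2 fold change was 0.22 in MK14 and 0.32 in KB01. Relative to each gene's mean, the median of these genes was -0.056, -0.19 and -0.061 in wild type, 0.15, 0.030 and 0.14 in MK14 and 0.036, 0.023 and 0.20 in KB01. All 6 transgenic values lie above all 3 wild-type values. The bin was singled out after its values were seen and holds the fewest genes of any, so no test is given. Other genes called higher in it were pgp-9, an ABC transporter, Y6G8.2, T05E12.6 and Y20C6A.1 in MK14 and the last pair in KB01. The fatty acid desaturase gene fat-5, with an opposite-strand partner, was lower in both strains, and lon-8, with no such partner, was lower in MK14 alone.

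Across the chromosome, 8 of the 10 megabases of the centre had a median above 0 in MK14 and 8 in KB01. In the left arm it was 3 of 6 and 2 of 6, and in the right arm 2 of 5 in each. Centre medians ran from -0.018 to 0.16 in MK14 and from -0.049 to 0.15 in KB01. The boundaries themselves fall between cpg-4 (log2 fold changes of -0.15 and -0.45) and fos-1 (0.081 and 0.23) on the left and between nhr-50 (0.65 and 0.57) and nhr-63 (0.11 and 0.22) on the right.

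**Figure D4:**
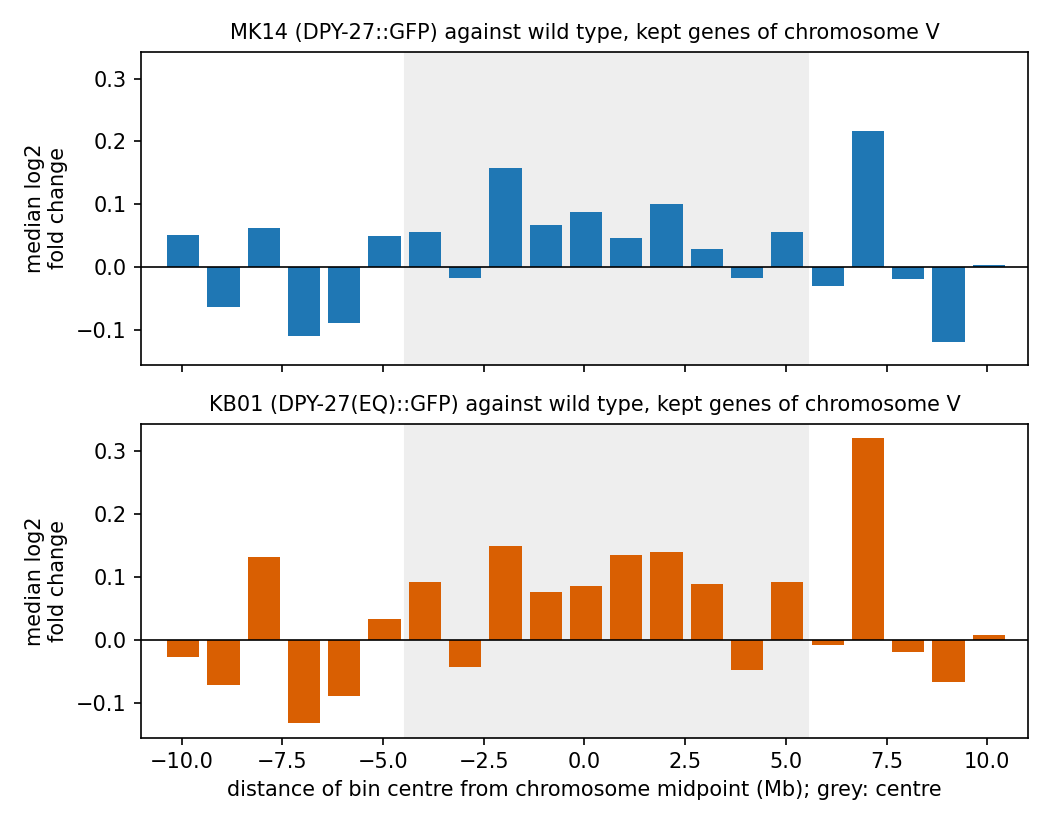
Bars give the median fitted log2 fold change against wild type of the genes that passed in each megabase of chromosome V, placed by the distance of its centre from the chromosome midpoint (Mb), with the centre shaded grey. In the centre 8 of 10 bars lie above 0 in each panel, and the tallest bar, in the right arm, stands at 0.22 for MK14 and 0.32 for KB01.

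In the left arm the named higher genes lay further apart. The intermediate filament gene ifc-1 (chrV:2881382-2883752, plus strand) had 10.7, 15.3 and 11.4 CPM in wild type, 41.4, 62.9 and 29.0 in MK14 and 37.5, 27.8 and 31.1 in KB01. It rose 3.58-fold in MK14 (log2 1.84 ± 0.26, edgeR adjusted p = 0.00117) and 2.58-fold in KB01 (edgeR adjusted p = 0.00920). A smaller change with tight replicates was that of W02H5.2, at 17.3 ± 0.73 CPM in wild type (SD, n = 3) and 27.1 to 35.6 CPM in MK14 (log2 0.89 ± 0.16, edgeR adjusted p = 0.00584). In the right arm Y20C6A.1 went from 1.66 to 3.99 CPM in wild type to 8.53 to 9.66 CPM in KB01 (edgeR adjusted p = 0.00548). This call was lost with the file name prefix as a covariate, as were the MK14 calls of ifc-1 and W02H5.2.

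Among centre genes, the same 4 headed the list of higher genes in both strains, where the shared wild-type libraries enter both comparisons. The gene catp-3 encodes a cation-transporting P-type ATPase. Its levels were 2.76, 3.59 and 1.76 CPM in wild type, 27.7, 19.8 and 5.65 in MK14 and 11.7, 13.7 and 17.6 in KB01, and the log2 fold changes were 2.73 ± 0.46 (edgeR adjusted p = 0.00428) and 2.42 ± 0.46 (edgeR adjusted p = 0.00940). In KB01 the call held in 3 of 6 fits that left out a library. With the file name prefix as a covariate catp-3 was called in neither strain. It opens a run of 3 consecutive genes, from 8076064 to 8126684, that were all higher in both strains.

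The second gene of the run, myo-5, encodes a muscle-type myosin heavy chain. It had 165, 172 and 147 CPM in wild type, 453, 609 and 221 in MK14 and 405, 246 and 377 in KB01. Both strains lay above wild type in every library. The calls were nearer the threshold (log2 1.41 ± 0.30, edgeR adjusted p = 0.0135, and 1.09 ± 0.29, edgeR adjusted p = 0.0465), and the second was lost in each of the 6 fits that left out a library. The muscle marker unc-54 had 1297 to 1634 CPM in wild type and 1967 to 4580 CPM in MK14, and 2147 to 3598 CPM in KB01, and the part of muscle content or stage in the values of myo-5 was not tested. The last gene, D1014.5, overlaps spr-1 on the opposite strand and changed by 0.75 and 0.81 on the log2 scale.

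The other centre genes at the top were Y38A10A.2, pmp-5 and scyl-1. The gene pmp-5 (chrV:6662173-6665798, minus strand) encodes a peroxisomal membrane ABC transporter and had 16.6 to 25.4 CPM in wild type, 35.6 to 59.3 in MK14 and 44.6 to 54.8 in KB01, with log2 fold changes of 1.27 ± 0.21 and 1.26 ± 0.21 (edgeR adjusted p = 0.00388 and 0.00464). The SCY1-like pseudokinase gene scyl-1 was the most abundant, with 107 to 130 CPM in wild type and 184 to 236 CPM in the 6 transgenic libraries (edgeR adjusted p = 0.00497 and 0.00904). For Y38A10A.2 (chrV:6057346-6063408) the ranges were 3.18 to 4.32 CPM and 8.82 to 16.1 CPM. All calls of these 3 genes held with any 1 library left out. With the file name prefix as a covariate, scyl-1 lost its call in both strains, and Y38A10A.2 and pmp-5 lost theirs in MK14.

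The decreases with the smallest adjusted p all fell on genes with a partner on the opposite strand. By the rule on named genes the lowest adjusted p belonged to T21H3.5, T28F12.1, C37H5.14 and R10E8.3 in the arms and to ZK742.6, W06A7.4, T25F10.1 and ZC190.5 in the centre, in both comparisons, and all 8 have such a partner. ZK742.6, which overlaps the nuclear export receptor gene xpo-1, had 187, 169 and 206 CPM in wild type, 2.77, 3.40 and 1.88 in MK14 and 4.61, 3.26 and 3.26 in KB01. T28F12.1, which overlaps the Ras exchange factor gene sos-1, went from 21.7 to 23.3 CPM in wild type to 0.526 to 1.60 CPM in the transgenic libraries. T21H3.5, beside the calmodulin gene cmd-1, went from 22.5 to 27.6 CPM in wild type to 0.263, 0.525 and 0.479 CPM in KB01. The partners of T28F12.1 and T21H3.5 had 27.7 and 75.9 times the CPM of the genes themselves, as means over the 9 libraries.

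Of the 8, C37H5.14, R10E8.3, W06A7.4, T25F10.1 and ZC190.5 passed the count minimum only through the 3 wild-type libraries, so the filter itself set their direction and their values are a description. T25F10.1, which lies within the span of clik-1, had 46.7 to 59.1 CPM in wild type and 0 counts in all 3 KB01 libraries, at least 183-fold lower when 3 counts per library are taken as the limit. ZC190.5 had 17.5 to 22.4 CPM in wild type and 0 counts in MK14, at least 53.9-fold lower, and R10E8.3 had 4.79 to 6.28 CPM and 0 counts in MK14, at least 15.1-fold lower. W06A7.4, which overlaps the reticulon gene ret-1, had 85.8 to 118 CPM in wild type and at most 0.241 CPM elsewhere, and C37H5.14 had 3.82 to 4.56 CPM and at most 0.105 CPM. The no-gene reads that set wild type apart were present in the same libraries as these high values, and their part in the result was not tested.

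The same ranking among genes with no such partner, made after the values were seen, gave 10 further genes. Subunit genes of the mitochondrial ATP synthase were among them, atp-4 (chrV:6426175-6428421) in the centre and hpo-18 (chrV:4346073-4346907), which encodes the epsilon subunit, in the left arm. For atp-4 wild type had 438, 437 and 534 CPM, MK14 166, 217 and 212 and KB01 236, 200 and 243. It fell by 1.24 ± 0.15 (edgeR adjusted p = 0.00038) and by 1.05 ± 0.15 on the log2 scale (edgeR adjusted p = 0.00141). For hpo-18 the levels were 57.3, 65.1 and 60.4, then 17.9, 25.3 and 27.7, then 26.2, 32.9 and 21.8 CPM, and it fell by 1.37 ± 0.19 (edgeR adjusted p = 0.00121) and by 1.18 ± 0.19 (edgeR adjusted p = 0.00356). With the file name prefix as a covariate, atp-4 lost its call in both strains and hpo-18 in MK14.

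Other arm genes in this ranking were Y38H6C.16, with 40.9 to 43.4 CPM in wild type and 15.4 to 25.1 CPM in the transgenic libraries, Y60A3A.19 and cnc-3, which encodes a caenacin-type antimicrobial peptide. The last had 20.6 to 28.7 CPM in wild type and 5.78 to 10.8 CPM elsewhere, a log2 fold change of -1.33 ± 0.23 in KB01 (edgeR adjusted p = 0.00510). The pseudogene Y19D10B.4 had 3.84 to 5.27 CPM in wild type and 0 counts in the other 6 libraries, at least 15.4-fold lower in KB01. In the centre R01B10.2 had 4.37 to 5.32 CPM in wild type and 0 counts in MK14, at least 13.3-fold lower. This pair too passed the count minimum only through wild type, so their direction came with the filter. F46E10.2 (238 to 295 against 108 to 163 CPM), lpd-9 (94.5 to 109 against 38.7 to 63.0 CPM) and R10D12.13 (95.3 to 126 against 59.3 to 72.5 CPM) completed the list. With the file name prefix as a covariate, Y38H6C.16 and F46E10.2 lost their calls in both strains. Those of Y60A3A.19 and R10D12.13 in MK14 and of cnc-3 and lpd-9 in KB01 were also lost.

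**Figure D5:**
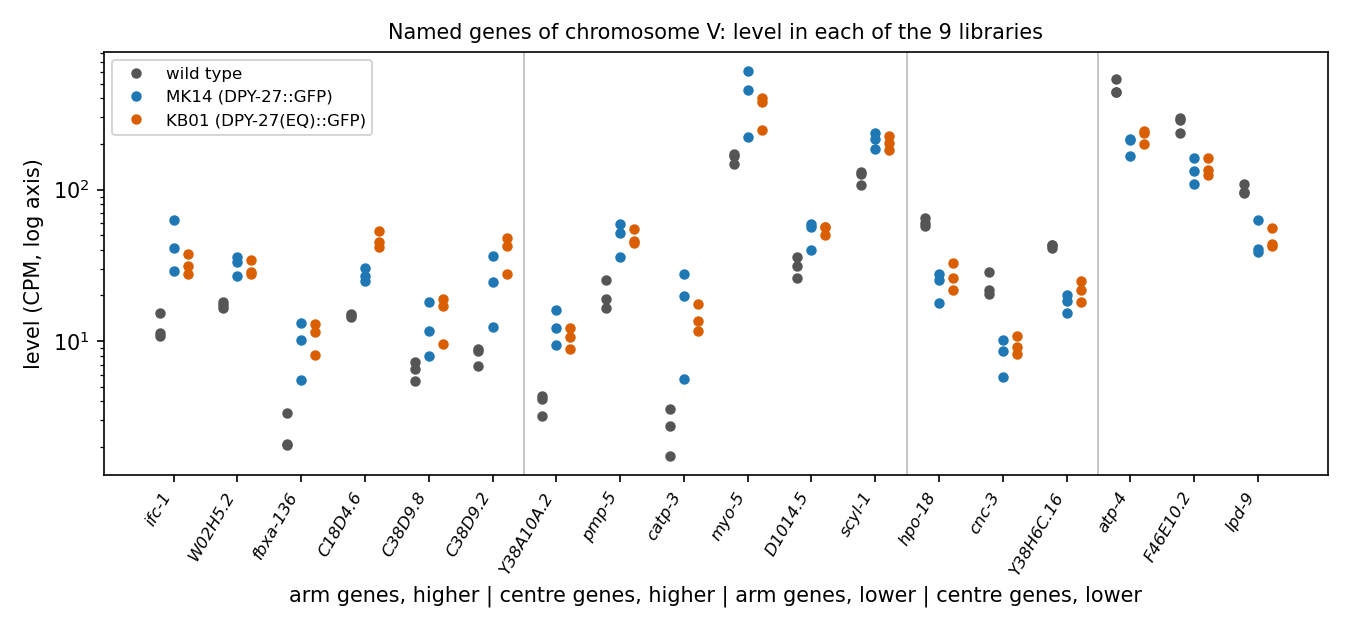
Each point is the level of a gene in 1 library (CPM, log axis) for wild type (grey), MK14 (blue) and KB01 (orange), with vertical lines between higher arm genes, higher centre genes, lower arm genes and lower centre genes. For C18D4.6 the strains form separate groups at 14.5 to 15.1, 25.1 to 30.5 and 42.0 to 53.0 CPM, and for the other genes shown the transgenic strains overlap each other while lying on one side of wild type. Apart from genes named only for a run, a gene was chosen because no library of a transgenic strain overlapped wild type, so that separation is not a finding.

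A cluster of decreases lay between 4 and 5 Mb in the left arm, a bin again singled out after its values were seen. Of its 116 genes that passed, 18 were lower in MK14 and 13 in KB01, beside 7.11 and 4.98 percent of all genes, and 11 and 8 of these overlap a gene on the opposite strand, as do 26.7% of the genes of the bin. They include hil-4, a linker histone gene, taf-10, a subunit gene of the general transcription factor TFIID that was called in MK14 alone, skr-14, a Skp1-related gene, and neg-1, an early embryonic gene. Relative to each gene's mean the median of the bin was 0.064 to 0.11 in wild type and -0.11 to -0.0021 in the 6 transgenic libraries, which do not overlap.

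Most members of the gene families of the chromosome were not called. Nuclear hormone receptor genes, ligand-regulated transcription factors of which this chromosome holds many, passed in 75 of 104 cases in the arms and 48 of 68 in the centre, and 0 of those in the arms were called in either comparison. In the centre 2 rose in MK14, nhr-154 and nhr-136, and only the latter, which has an opposite-strand partner, in KB01. C-type lectin genes passed in 13 of 63 cases in the arms and 7 of 30 in the centre, where clec-41 rose in both strains, from 4.76 to 5.72 CPM in wild type to 8.55 to 25.3 CPM. Of 36 F-box genes in the arms, fbxa-136 rose and fbxb-1 and fbxb-65 fell in both strains. Beside these counts stand the shares of all genes, 3.23 percent higher and 7.11 lower in MK14 and 1.88 and 4.98 percent in KB01. Of the 6 fits that left out a library, the calls of fbxb-1 held in 4 and 5, of fbxb-65 in 2 and 1, of nhr-136 in 1 and 0 and of clec-41 in 5 and 3, for MK14 and KB01, and that of nhr-154 in 1. In the arms the median level was 0.989 TPM for chemoreceptors that passed and 4.72 TPM for nuclear hormone receptor genes.

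Calls among the 42 chemoreceptor genes that passed stand beside 7.11 and 4.98 percent of all genes lower in MK14 and KB01. Of the 42, srh-268 in the centre and srh-98 in the right arm were lower in both strains. Their wild-type levels were 1.02 to 1.42 CPM and 0.664 to 2.59 CPM, with 0 counts in every MK14 library. The first overlaps a gene on the opposite strand. Both passed the count minimum only through wild type, which also has more reads, so their direction came with the filter and is given as a description.

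Cuticle collagen genes with a col- symbol were the family with the most calls in the centre. Of 27 there, 21 passed and 6 rose in MK14 (col-12, col-144, col-146, col-147, col-156 and col-160), with a median log2 fold change over the 21 of 1.04, and in KB01 1 rose (col-156) with a median of 1.02. Of all genes tested 3.23 and 1.88 percent rose. The cuticle collagen gene sqt-3, also in the centre but without a col- symbol, was called lower in MK14 (log2 fold change of -0.74). The call of col-156 in KB01 held in 1 of 6 fits that left out a library. MK14 replicate 2 weighed heavily in the MK14 calls: col-160 had 13.5, 101 and 10.1 CPM in MK14 against 3.51 to 7.91 CPM in wild type. Replicate 2 was the highest of its strain for each of the 6 (col-147 and col-156 have an opposite-strand partner), and it is the library with the highest late to early marker ratio (23.8). Without it none of the 6 was called, and the adjusted p of edgeR's test ran from 0.0804 for col-144 to 0.233 for col-160. The log2 fold changes of the 6 were then 0.54 to 1.35. In MK14 replicates 1 and 3 and in all 3 KB01 libraries, each of the 6 genes was also above every wild-type library. The part of developmental stage in these values was not tested.

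In the list of contractile and cuticle genes, 2 of 10 rose and 2 fell in MK14, beside 3.23 and 7.11 percent of all genes. With 1 library left out, these calls held in 1 of 6 fits for unc-68 and for sqt-3, in 2 for unc-70 and in 4 for dpy-11. The spectrin gene unc-70 had 1173 to 1579 CPM in wild type and 1897 to 2192 CPM in MK14 (edgeR adjusted p = 0.0382), and the ryanodine receptor gene unc-68 rose by 0.73 ± 0.21 (edgeR adjusted p = 0.0436). The collagen gene sqt-3 and the thioredoxin-like cuticle gene dpy-11 fell by 0.74 and 0.65, and in KB01 only dpy-11 was called, at -0.63 ± 0.14 (edgeR adjusted p = 0.0216), a call lost in each of the 6 fits that left out a library. Of these 4 genes, sqt-3, dpy-11 and unc-70 overlap an opposite-strand gene. The muscle myosin gene myo-3 had 825 to 1202 CPM in wild type and 1088 to 2455 CPM in MK14, which overlap. In KB01 it had 1901, 1334 and 1843 CPM, above wild type in each library, and it was not called in either strain.

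Of 15 genes on the list of embryo genes, 1 was called lower, beside 7.11 and 4.98 percent of all genes. The maternal CCCH zinc-finger gene oma-2, needed for oocyte maturation, had 79.5, 55.7 and 117 CPM in wild type, 32.5, 22.7 and 51.6 in MK14 and 29.1, 47.3 and 36.1 in KB01. Its log2 fold changes of -1.25 ± 0.31 and -1.16 ± 0.31 (edgeR adjusted p = 0.0280 and 0.0434) were held in 2 and 1 of the 6 fits that left out a library. The maternal genes pos-1 and spn-4, the endoderm genes end-1, end-3 and elt-7 and the pharynx gene pha-4 were among those not called. The late to early marker ratio uses oma-2, pos-1 and spn-4 as well. The list's median was -0.32 in MK14 and -0.44 in KB01, beside -0.013 and -0.030 over all genes.

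Genes of the dosage compensation machinery itself lie on this chromosome. For sdc-3, a zinc-finger protein gene needed to recruit condensin DC to X, levels were 105 to 114 CPM in wild type, 98.3 to 174 in MK14 and 87.9 to 116 in KB01. The demethylase gene dpy-21, in the right arm, had 483 to 544, 449 to 635 and 401 to 514 CPM. For dpy-30, shared with histone methyltransferase complexes, wild type had 248 to 302 CPM and the other strains 169 to 234 and 184 to 205 CPM. All transgenic values of dpy-30 were below those of wild type, and its log2 fold changes of -0.43 ± 0.14 and -0.47 ± 0.14 did not pass (edgeR adjusted p = 0.0771 and 0.0709).

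Small heat shock genes on the left arm bear on the heat treatment, because the transgenes use the promoter of one of them. The gene hsp-16.41 had 84.2, 89.0 and 158 CPM in wild type, 50.8, 69.1 and 85.1 in MK14 and 99.2, 52.7 and 103 in KB01. Its divergent neighbour hsp-16.2 had 50.1 to 109, 29.2 to 52.8 and 28.4 to 56.1 CPM. Ranges of the strains overlapped for both, and neither was called. The chaperone gene hsp-90, at 1970 to 2590 CPM over the 9 libraries, and the mitochondrial hsp-6, at 300 to 409 CPM, were not called either. Of 9 genes on this list 5 passed the count minimum.

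Histone genes passed in 4 cases in the arms and 10 in the centre, and 1 in each region was lower in MK14. In KB01 only 1, in the centre, was lower. Ribosomal protein genes passed in 3 and 5 cases, and 1 in each region was lower in MK14. In KB01 only 1, in the arms, was lower. Beside these stand 7.11 and 4.98 percent of all genes. The MK14 call of his-3 held in 1 of 6 fits that left out a library. That of rpl-39, which has an opposite-strand partner, held in 2. The H3-type gene his-74 had 96.3 to 210 CPM in wild type and 33.4 to 79.6 CPM in the transgenic libraries, with log2 fold changes of -1.51 ± 0.32 and -1.52 ± 0.32 (edgeR adjusted p = 0.0148 and 0.0175). The calls held in 4 and 2 of the 6 fits that left out a library. Near the left end, rps-27 had 440, 528 and 505 CPM in wild type, 162, 301 and 297 in MK14 and 323, 278 and 255 in KB01 (edgeR adjusted p = 0.0159 and 0.0429), and the second call was lost in each of the 6 fits that left out a library. All transgenic libraries lay below wild type for rps-27.

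Between KB01 and MK14 no gene of the chromosome was called by edgeR's quasi-likelihood test or by DESeq2 at an adjusted p under 0.05. At an unadjusted edgeR p under 0.05 there were 17 arm genes (1.61%) and 9 centre genes (0.609%), beside 1.01 percent of all genes. The median log2 difference was 0.0053 in the arms and 0.0020 in the centre, and 0.031 on X. The smallest p belonged to C18D4.6, followed by the ubiquitin-conjugating enzyme gene ubc-19, by F57F4.1 and by Y116F11A.1. The levels of ubc-19 were 11.4 to 14.2 CPM in MK14, 18.4 to 19.5 CPM in KB01 and 20.7 to 23.6 CPM in wild type. F57F4.1 had at most 0.290 CPM in either transgenic strain and passed the count minimum only through wild type. Both ubc-19 and F57F4.1 overlap a gene on the opposite strand. The spread between replicates bears on this: the median SD of log2 CPM over arm genes was 0.39 in MK14 against 0.21 in wild type and 0.24 in KB01, and over centre genes it was 0.38, 0.18 and 0.21.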

How the data were processed

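Raw counts were deposited by the authors as 9 single-library files and 1 merged table, with identical values. The authors also deposited TPM per gene and library with gene positions, and the tool that made the TPM is not given in the sources used here. The labels name CASAVA 1.8, Cufflinks 2.2.0, HTSeq 0.6.1p1 and DESeq2. The paper's methods, written for another strain, describe stranded single-end libraries aligned to WS220. Whether counting used strand is not given in the sources used here. Tables of the authors' own comparisons (means, log2 fold changes, errors and p-values) were not used. Rows that name no gene, such as reads on no feature, made up 55.2 to 58.2% of the counts in wild type, 12.6 to 13.5% in MK14 and 12.8 to 21.2% in KB01, and were left out.

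Counts of all 9 libraries were fitted together with edgeR 4.0.16 (TMM, quasi-likelihood test, strain as the only term), with Benjamini-Hochberg adjustment over the 13425 genes with 10 or more counts in 3 or more libraries, and called at 0.05. The script was tested on simulated data. DESeq2 1.42.0 was an alternative. CPM uses the TMM library sizes, and log2 CPM a prior count of 2. Levels are log2(TPM + 1), whose differences understate those of low genes. Medians over genes carry no test. Opposite-strand overlap was taken from exons of the WBcel235 annotation, matched for 2497 of the 2533 genes, or from spans in the TPM table. Named genes are, for each transgenic strain against wild type, each region and each direction, the 4 called genes with the smallest adjusted p whose libraries do not overlap between strains, the 4 with the smallest p between the transgenic strains, runs of 3 or more consecutive called genes, and lists of embryonic, dosage compensation, heat shock and contractile genes and gene families. Members and lists were chosen with earlier results of these data known. Marker genes were fixed lists of the same kind. Alternatives changed the normalization, test, filter, samples, covariates, boundaries, depth and members. No replicate pair differed by less than sampling noise. Same-numbered libraries of MK14 and wild type had correlated deviations (0.072, 0.36 and 0.42), which does not hold for every pair.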

Additional observations from a re-analysis of the deposited data

Results flagged for a closer look

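The values here are medians of log2 CPM set against the mean of the same gene in all 9 libraries, as differences between sets of genes, and the differences between strains in them were not tested. They were picked out because all 3 libraries of one strain lay on one side of 0 and all 3 of the other strain on the other side, and since values are relative to a mean over both strains, opposite signs come easily. Arms minus centre was above 0 in every wild-type library (mean 0.064) and below 0 in every MK14 library (mean -0.030). The same held for the left arm minus the centre (0.058 and -0.047), for genes without an opposite-strand partner (0.062 and -0.035) and for genes with 10 or more counts in every library (0.062 and -0.032). The centre minus chromosomes I to IV was below 0 in every wild-type library (mean -0.082) and above 0 in every KB01 library (mean 0.057). Chromosome V was picked by its median change, so this difference is not independent of that choice. Depth, the share of reads assigned to no gene and, for MK14, the file name prefix differ between the same libraries.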

How the results depend on the processing

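The difference of arms and centre in fitted log2 fold change stayed below 0 in both comparisons with wild type under every alternative tried. Without a filter on low counts it came to -0.37 in MK14 and -0.36 in KB01, and in the latter it was -0.045 for genes with a mean of 10 CPM or more and -0.060 when only its replicate 3 was set against wild type (chosen after seeing the data). Leaving out 1 library gave -0.088 to -0.065 and -0.12 to -0.070, and -0.014 to 0.027 between the transgenic strains. The TPM gap, in the order wild type, MK14 and KB01, was -0.82, -1.14 and -1.11 with no filter, -0.34, -0.44 and -0.43 with 10 counts in every library, -0.31, -0.40 and -0.40 without the gene families, -0.37, -0.43 and -0.47 with arms outside 5000000 to 17000000, and -0.55, -0.65 and -0.65 with a pseudocount of 0.1. It was -0.56 in MK14 with arms outside 7000000 to 15000000, and -0.53 in wild type from counts per exonic length (added after seeing the data). Leaving out 1 library gave -0.50 to -0.49, -0.60 to -0.59 and -0.61 to -0.58. Calls moved more. DESeq2 gave 75 higher arm and 143 higher centre genes in MK14, and 58 and 96, with 90 lower centre genes, in KB01. The fit of only the strains compared gave 19 higher and 36 lower arm genes with 18 and 52 in the centre for MK14, and 107, 99, 214 and 133 for KB01. The prefix covariate gave 0, 2, 0 and 5, and 3, 7, 3 and 16. With 10 counts in every library there were 45 lower arm and 56 lower centre genes in MK14, and 24 lower arm, 25 higher centre and 33 lower centre genes in KB01. With a mean of 10 CPM or more these were 35 and 52, and 20, 19 and 33. Without opposite-strand overlap they were 39 lower arm, 31 higher centre and 39 lower centre genes, and 24, 23 and 22. Leaving out 1 library gave 5 to 115 higher and 21 to 100 lower arm genes and 6 to 223 and 30 to 140 centre genes in MK14, and 5 to 16, 20 to 27, 4 to 16 and 26 to 40 in KB01. With the replicate number as a block, 41 centre genes were higher in MK14, and the other counts stayed within 1.5 times. Of the 6 libraries of MK14 and wild type 5 correlated best with their own number, and 0 of 6 for each other pair of strains, so the numbers were not treated as pairs. Thinning, added after seeing the data, kept all counts within 1.5 times. Of single genes, hsp-6, not called in any fit, changed sign: 0.22 in MK14 and 0.18 in KB01 with the prefix covariate, and in the latter 0.022 with 10 counts in every library, 0.011 with DESeq2, 0.010 with its size factors, 0.048 with 10 CPM, 0.017 with no filter, 0.029 with only the strains compared and 0.0055 after thinning. With 1 library left out, hsp-17 ran from -0.40 to 0.30 in MK14 and from -0.046 to 0.15 in KB01, and in KB01 hsp-6 ran up to 0.13, sdc-3 from -0.19 to 0.0088 and dpy-21 from -0.18 to 0.014. With the prefix covariate sdc-3 was 0.087. Low levels, a prefix that wild type shares with 1 other library and the different depth limit all comparisons with wild type.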
